A study of Mus musculus with 2 samples.

Results

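Hoxa2, Hoxa3, Hoxa4, Hoxa5, Hoxa6 and Hoxa7 are the anterior members of the HoxA cluster examined here, 6 of the 23157 genes of the transcript table. They were taken by symbol, and all 6 were found, with 18 transcripts in all. The group was selected on its place in the cluster and on the ratios between these same libraries, which were known, so the differences below are a description and carry no test. The study compared strand-specific poly(A) RNA-seq of E12.5 distal forelimbs (C57Bl6CBAF1), with 1 library from wild type and 1 from HoxD Inv(TpSB1-Itga6), an inversion of a 2.4 Mb segment of chromosome 2 next to the HoxD cluster, carried on both chromosomes. The design text of the series gives 3 pairs of forelimbs as the source, so embryos were pooled. Sex and litter of the embryos are not in the labels, and one label calls the wild-type sample a forelimb while its tissue field says distal limb. With 1 library per genotype, no difference has a replicate check, and a difference between these pools cannot be told apart from one between genotypes.

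Hox genes encode homeodomain transcription factors that give cells their position along the body axis. Within a cluster the genes are arranged in the order of their expression domains, with the anterior genes at the 3′ end, and they bind DNA together with Pbx, Meis and Pknox cofactors. In the limb, the posterior genes Hoxa13 and Hoxa11 mark the future hand and forearm, while the anterior genes are best known from the hindbrain, the branchial arches, the neck and the thorax. The HoxA cluster is on another chromosome than the inversion. In GENCODE M21 (GRCm38) the 6 genes cover 59438 bases of the minus strand of chromosome 6, from 52162417 (end of Hoxa2) to 52221854 (start of Hoxa7). Positions are those of that annotation, matched by transcript identifier, because the table was made on NCBIM37 and names only a chromosome.

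A value in the table is the number of reads of a transcript divided by a size factor of its library. Whole reads could be recovered from it, 9280660 for wild type and 9466154 for the inversion, and 1 read was worth 1.01 and 0.988 normalized reads. Ratios are log2 of inversion over wild type with a pseudocount of 1, a scale on which the change of a gene with few reads is understated. They were computed for 16756 genes, those whose mean reached 10 normalized reads, and their median was -0.02. Intervals of ratios come from the exact 95% Clopper-Pearson bounds on the part of a gene's reads that fell in the inversion library. They hold for these libraries and for counting error alone, as reads carried no molecular identifiers. Each recovered read is taken as counted once, though the sources used here do not say whether a read could count for several transcripts. The limb markers Prrx1, Prrx2, Tbx5, Twist1, Msx1, Msx2, Lhx2 and Lhx9 all had reads, with summed levels of 12480 normalized reads (wild type) and 12081 (inversion), and the forelimb gene Tbx5 had 1663 and 1959 reads. Tbx4 and Pitx1, known from the hindlimb, were not absent, with 474 wild-type and 423 inversion reads together. Genes that differ with embryo sex were unequal, with 2607 wild-type and 13 inversion reads of Xist and 826 and 2820 summed reads of 4 Y-linked genes. Their part in the ratios was not tested.

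All 6 genes were higher in the inversion library. Summed over the group, 553 wild-type reads stood against 948 inversion reads, which is 560 and 936 normalized reads and a 1.67-fold difference (95% interval 1.5 to 1.86). Their median log2 ratio was 0.68, from 0.40 for Hoxa7 to 1.03 for Hoxa6. Of all genes tested, 46.6% had a ratio above 0. The interval lay above 0 for 5 of the 6 genes, Hoxa4 being the exception, against 16.7% of all genes tested and 17.6% of the 5707 genes whose mean lay within the range of the members (18.4 to 208 normalized reads). Only Hoxa6 was at least 2-fold higher, against 3.99% of all genes tested and 6.76% within that range, and no member was at least 2-fold lower, against 0.483%. Within that range 22.8% of genes had a ratio at or above that of Hoxa7, the lowest of the members. The interval of Hoxa7 above 0 is that of its summed transcripts. For its transcript with the highest mean, the interval included 0 (-0.31 to 0.84). Since the ratios were known when the genes were chosen, nothing is read from these shares. As whole tissue was sequenced, more cells with these transcripts and more RNA per cell cannot be told apart.

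**Figure D1:**
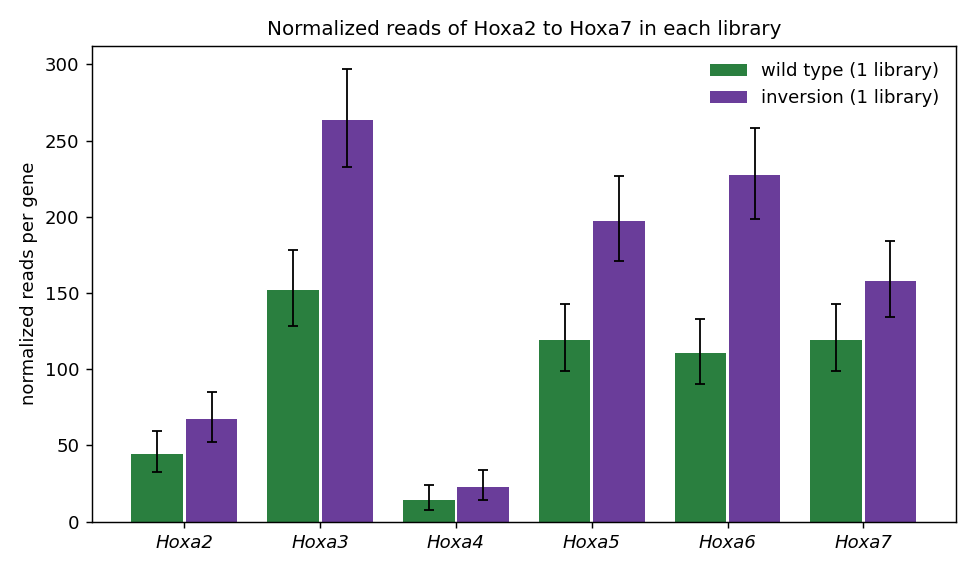
Normalized reads per gene (vertical axis) of Hoxa2 to Hoxa7 in the wild-type library (green) and the inversion library (purple), with exact 95% Poisson intervals as error bars. Each purple bar is above its green neighbour, and the bars of Hoxa4 (14.2 and 22.7 normalized reads) are the lowest.

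Hoxa2 is the gene at the anterior end, known for patterning the hindbrain and the branchial arches. It has 1 transcript in the table, with 44 wild-type and 68 inversion reads. The normalized values were 44.6 and 67.2, and the log2 ratio was 0.58, with an interval (0.02 to 1.17) that barely leaves 0. Hoxa3, which acts in the thymus, the parathyroid and the throat skeleton, had the most reads of the group. It went from 152 normalized reads in wild type to 264 in the inversion (log2 ratio 0.79, 95% interval 0.50 to 1.09). Hoxa4, a gene of vertebral patterning, was counted with 14 wild-type and 23 inversion reads. Its log2 ratio of 0.64 had a 95% interval of -0.34 to 1.75, and a difference was not detectable at this depth.

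Hoxa5 shapes the neck and upper thorax and is needed in the developing lung. Its only transcript had 118 wild-type and 200 inversion reads, or 119 and 198 normalized reads (log2 ratio 0.72, 95% interval 0.39 to 1.07). Hoxa6, a thoracic gene, gave the largest ratio of the group. It had 110.4 wild-type and 227 inversion normalized reads, a 2.06-fold difference (95% interval 1.63 to 2.61). Hoxa7, also thoracic, had the same 118 wild-type reads as Hoxa5 but 160 in the inversion library, which gave a log2 ratio of 0.40 (95% interval 0.05 to 0.76). The intervals of Hoxa6 and Hoxa7 overlap slightly, and those of the other members overlap with both, so the order of the 6 ratios is not resolved by these read numbers. Among all genes tested, 3.74% had a higher ratio than Hoxa6 and 13.8% a higher one than Hoxa7.

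The sequence before the start of a gene was available from RefSeq (GRCm38.p6) for 5 members, Hoxa4 having no entry. Those of Hoxa2 and Hoxa5, which have a single transcript, and of Hoxa6, which had the highest ratio, are printed. They run 5′ to 3′ on the minus strand and leave out bases within annotated exons, at chr6:52164832-52165081 for Hoxa2, chr6:52204588-52204837 for Hoxa5 and chr6:52208723-52208922 for Hoxa6. Capitals mark CCAAT (read by NF-Y), GGGCGG (read by Sp factors) and TGATTNAT (a site of Pbx and Hox pairs), each on either strand.
Hoxa2: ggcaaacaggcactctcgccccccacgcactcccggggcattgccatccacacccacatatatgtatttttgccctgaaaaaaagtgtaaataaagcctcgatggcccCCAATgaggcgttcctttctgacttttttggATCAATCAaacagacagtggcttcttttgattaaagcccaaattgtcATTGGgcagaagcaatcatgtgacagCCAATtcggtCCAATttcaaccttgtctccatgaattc
Hoxa5: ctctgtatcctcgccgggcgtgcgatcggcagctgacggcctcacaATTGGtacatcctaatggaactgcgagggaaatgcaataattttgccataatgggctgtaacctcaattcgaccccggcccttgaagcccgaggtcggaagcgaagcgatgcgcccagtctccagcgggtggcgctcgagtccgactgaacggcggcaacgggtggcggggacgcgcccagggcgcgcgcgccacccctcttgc
Hoxa6: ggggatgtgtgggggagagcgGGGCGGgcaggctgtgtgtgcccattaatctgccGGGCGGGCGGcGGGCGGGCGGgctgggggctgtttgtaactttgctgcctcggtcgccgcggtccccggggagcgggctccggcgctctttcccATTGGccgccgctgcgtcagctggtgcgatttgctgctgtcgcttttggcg
A match is a match of letters and no proof of binding. In windows of 300 bases (250 before and 50 after the start), CCAAT was found in Hoxa2, Hoxa5 and Hoxa6 and in 37.4% of 32851 windows. Hoxa2 held it 4 times and also held TGATTNAT, found in 3.22% of windows. GGGCGG was found in Hoxa6 alone among the members, as 5 matches of which some overlap each other, and in 35.7% of windows. AGGTCA, the half-site of nuclear receptors such as those of retinoic acid, was found in Hoxa5, in the bases after the start, and in 16.3% of windows. TATAAA was in none of the 5 windows and in 13.6% of all. The windows of Hoxa3, Hoxa5 and Hoxa6 had a GC content of 61.7% to 64.0%, that of Hoxa7 55.7% and that of Hoxa2 45.7%, against a median of 52.7% over all windows. The Hoxa7 window (chr6:52218524-52218823) held no motif of this search. It does not contain the start of the Hoxa7 transcript with the most reads, ENSMUST00000048715, at 52217505 in GENCODE M21. Whether motifs go with the ratios was not tested.

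**Figure D2:**
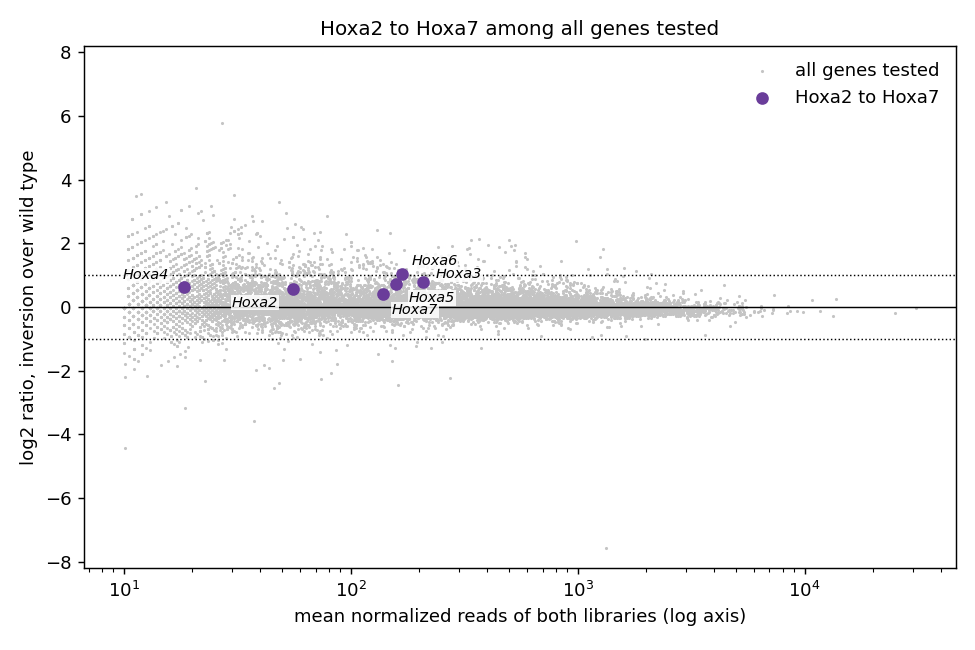
Log2 ratio of inversion over wild type (vertical axis) against the mean normalized reads of both libraries (horizontal log axis) for the 16756 genes tested (grey), with Hoxa2 to Hoxa7 in purple. Dotted lines mark 2-fold. The 6 genes lie above 0 among genes with few to medium reads, and Hoxa6 alone reaches the upper dotted line.

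Levels were compared between genes per length, as reads per kb of the transcript with the highest mean, scaled to 1000000 recovered reads. In wild type the level was 11 for Hoxa6 (exact 95% Poisson interval 8.81 to 13.5) and 6.77 for Hoxa5 (5.61 to 8.11). It was 3.70 for Hoxa3, 2.67 for Hoxa2, 2.57 for Hoxa7 and 0.879 for Hoxa4 (0.468 to 1.5). The intervals of Hoxa3 and Hoxa2 overlap there, as do those of Hoxa2 and Hoxa7, while the other neighbours in this order are apart. The order was the same in the inversion library, with levels of 22.2 for Hoxa6, 11.3 for Hoxa5, 6.16 for Hoxa3, 4.05 for Hoxa2, 3.10 for Hoxa7 and 1.19 for Hoxa4. Only the intervals of Hoxa2 and Hoxa7 overlap between neighbours in that library. These levels are from 1 transcript per gene, and reads that the authors assigned to other transcripts of Hoxa3, Hoxa4, Hoxa6 and Hoxa7 are not in them.

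Of the 18 transcripts, 17 were higher in the inversion library and 7 had an interval above 0. Among the 41245 transcripts of the table with a mean within their range, these shares were 56.0% and 14.3%. Reads were few, as 10 of the 18 transcripts had under 25 in both libraries. The exception was ENSMUST00000128102, with 5 reads in each library (log2 ratio -0.03). The table lists it under Hoxa3, whereas GENCODE M21 gives it a gene of its own, Gm28308, whose exons overlap both Hoxa2 and Hoxa3. The main coding transcript of Hoxa3, ENSMUST00000114434, took 59.3% of the gene's wild-type reads and 56.6% of its inversion reads. Its log2 ratio was 0.72 (95% interval 0.34 to 1.12). ENSMUST00000048882 held 26.7% and 26.6% of the reads of Hoxa3, with 40 and 71 reads. The remaining Hoxa3 transcripts had at most 17 reads in either library. The division of the Hoxa3 reads over its transcripts was thus much alike in the libraries.

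For Hoxa6 the coding transcript ENSMUST00000062829 had 89 and 184 reads, and ENSMUST00000152244 had 20 and 46. Their log2 ratios of 1.0 and 1.13 were close, and each interval lay above 0 (0.64 to 1.39 and 0.38 to 2.0). For Hoxa7 the intervals of its 5 transcripts all overlap, so differences between their ratios are not resolved by these read numbers. Its transcripts with the most reads, the coding ENSMUST00000048715 (48 and 59 reads) and ENSMUST00000153280, annotated for nonsense-mediated decay (46 and 56 reads), had log2 ratios of 0.26 and 0.24, with intervals that include 0. ENSMUST00000134367, a coding transcript with few reads, had 5 and 16 reads (log2 ratio 1.47, 95% interval 0.13 to 3.45). The other Hoxa7 transcripts, ENSMUST00000140316 (13 and 18 reads) and ENSMUST00000150041 (6 and 11 reads), had intervals that include 0. For Hoxa4 the coding transcript ENSMUST00000101395 had 13 and 18 reads, with a log2 ratio of 0.41, and ENSMUST00000164333 had 1 and 5.

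**Figure D3:**
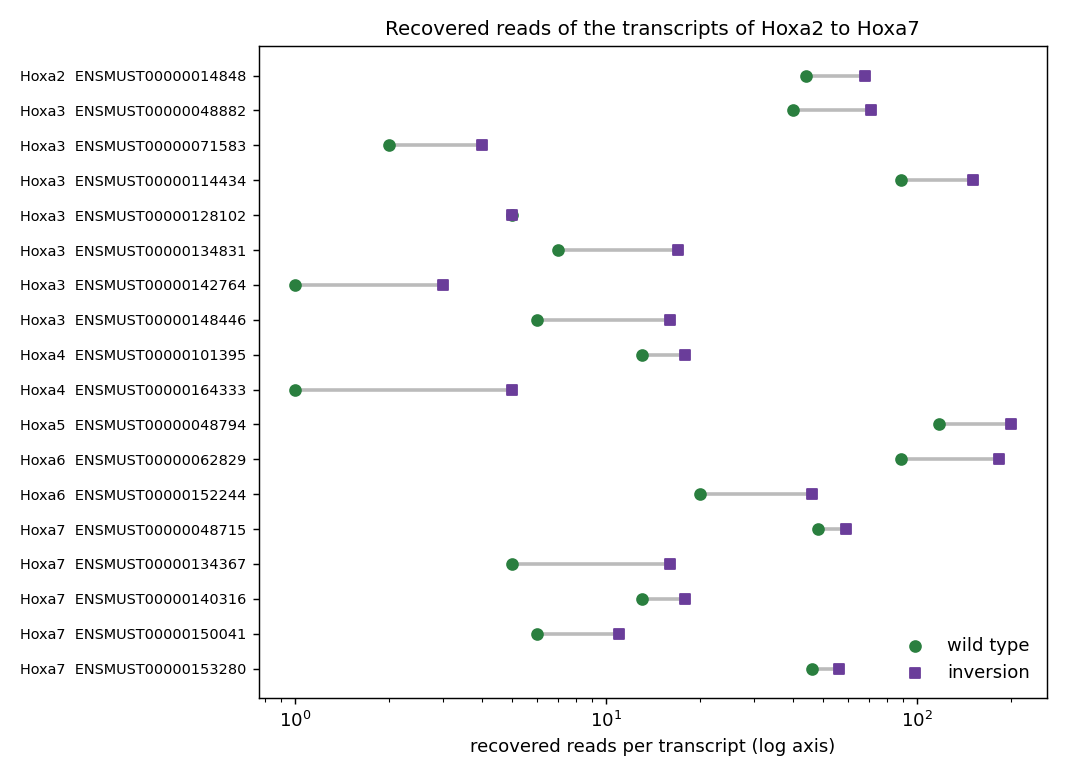
Recovered reads per transcript (horizontal log axis) for the 18 transcripts of Hoxa2 to Hoxa7, wild type as green circles and inversion as purple squares, joined by a line. The square is to the right of the circle for 17 transcripts, and for ENSMUST00000128102 both marks coincide at 5 reads.

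Reads could be shared between genes at this locus, and the sources used here do not say whether the assignment used the strand. Exons of 9 of the 14 transcripts found in GENCODE M21 overlap an exon of another gene. The coding transcript of Hoxa3 shares 503 bases with the antisense gene Hoxaas2, and that of Hoxa7 shares 579 bases, or 28.8% of its length, with the antisense gene Hoxaas3. That of Hoxa4 shares 255 bases with the antisense gene Gm29430, and Hoxa2 shares 267 bases with Gm28308 on its own strand. Hoxa5 and the coding transcript of Hoxa6 share no exon bases with another gene in that annotation, though both lie within the span of Hoxa3. With the overlapping and the unmatched transcripts left out, only Hoxa5, Hoxa6 and Hoxa7 kept a value. It was unchanged for Hoxa5, 1.0 for Hoxa6, and 0.84 (95% interval 0.13 to 1.65) for Hoxa7 in place of 0.40.

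The genes transcribed from the opposite strand between Hoxa2 and Hoxa7 were also higher. Hoxaas2, listed as 5730446D14Rik, had 3 wild-type and 13 inversion reads, a mean under the filter. Gm15050 had 9 and 22 reads (log2 ratio 1.17, 95% interval 0.08 to 2.56). Hoxaas3, a long antisense RNA listed as 2700086A05Rik, had 10 and 29 reads (log2 ratio 1.41, 95% interval 0.42 to 2.70). 5730596B20Rik, within Hoxa3 and annotated as protein-coding in GENCODE M21, had 14 and 53 reads (log2 ratio 1.81, 95% interval 1.01 to 2.85). Summed, these 4 genes had 36 wild-type and 117 inversion reads, a 3.17-fold difference, with a log2 ratio of 1.66 (95% interval 1.11 to 2.25) that does not overlap the interval of 0.59 to 0.90 for the summed members. With strand use unknown, reads of Hoxaas2, Hoxaas3 and 5730596B20Rik cannot be told apart from those of overlapping Hoxa3 and Hoxa7 exons. Gm15050 shares no exon bases with a member transcript found in GENCODE M21. The antisense gene that overlaps Hoxa4, Gm29430, is not among these 4 genes. Outside the members, Hotairm1 (listed as Gm15051), at the anterior end of the cluster, had 17 and 18 reads, and 5730457N03Rik, beside Evx1, had 198 and 407.

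The posterior genes of the cluster were higher as well. The log2 ratio was 0.69 for Hoxa9 (95% interval 0.54 to 0.84), 0.40 for Hoxa10 (0.29 to 0.51) and 0.61 for Hoxa11 (0.44 to 0.79). Hoxa13, the gene of the future digits, had 1084 and 1208 reads and a log2 ratio of 0.12 (0.00 to 0.24), below the lowest value of the members. The interval of Hoxa13 does not overlap those of Hoxa3, Hoxa5 and Hoxa6, and it overlaps those of Hoxa2, Hoxa4 and Hoxa7. For the summed reads of Hoxa9, Hoxa10, Hoxa11 and Hoxa13 the log2 ratio was 0.41, and its interval (0.34 to 0.47) is below that of the summed members. Whether the groups differ between genotypes cannot be tested with 1 library each.

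Genes of the same paralogue groups in other clusters share the homeodomain type of the members. Of the HoxB genes Hoxb2 to Hoxb7, Hoxb4 (13 and 16 reads) and Hoxb7 (13 and 15 reads) passed the filter, and the 6 genes summed to 52 wild-type and 49 inversion reads. The log2 ratio of this sum was -0.12, and its interval (-0.72 to 0.47) lies below that of the summed members. Hoxc4, Hoxc5 and Hoxc6 together had 64 and 79 reads, a log2 ratio of 0.27 (95% interval -0.23 to 0.77) that includes 0 and overlaps the interval of the summed members. Hoxd3 and Hoxd4, on the chromosome with the inversion, had log2 ratios of 2.86 (95% interval 2.21 to 3.72) and 2.03 (1.29 to 2.98). The interval of Hoxd3 is above that of each member, and that of Hoxd4 overlaps those of Hoxa4 and Hoxa6. Of the 11 Hox genes compared that passed the filter, Hoxa9, Hoxa10, Hoxa11 and Hoxc5 had a ratio within the range of the members. Over 2 libraries, this ratio is the only likeness that can be given, and for Hoxc5 it rests on 9 and 14 reads. Hoxa10 is at the lower edge of the range, with the same 0.40 as Hoxa7. Its coding transcripts ENSMUST00000121043 and ENSMUST00000125581 were at 0.31 and 0.33, and ENSMUST00000138481, not found in GENCODE M21, was at 1.61.

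**Figure D4:**
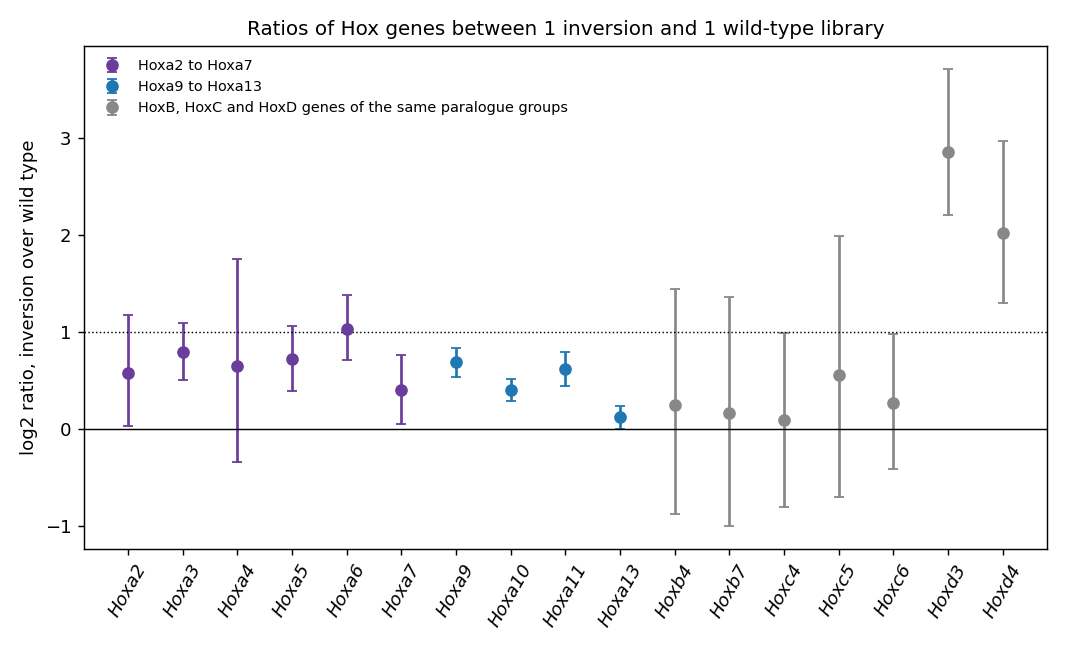
Log2 ratio of inversion over wild type (vertical axis) with 95% Clopper-Pearson intervals for Hoxa2 to Hoxa7 (purple), Hoxa9 to Hoxa13 (blue) and the genes of the same paralogue groups that passed the filter (grey). The dotted line marks 2-fold. The purple and blue points lie above 0, the HoxB and HoxC intervals include 0, and Hoxd3 and Hoxd4 lie highest.

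Of the genes that work with or upstream of anterior Hox genes, most were lower or near 0. Over all genes tested, 46.6% had a ratio above 0 and the median was -0.02. The counts below thus do not by themselves set these genes apart. Among 9 cofactor genes, 3 were higher and 6 lower, none by 2-fold, with a median log2 ratio of -0.09. Pbx4 was at the upper end (37 and 58 reads, log2 ratio 0.60, 95% interval -0.01 to 1.25). Meis2, at the lower end, had 515 and 417 reads (log2 ratio -0.34, 95% interval -0.53 to -0.15). The list of upstream factors had 9 of 11 genes in the table, of which 8 passed the filter, 2 higher and 6 lower. Aldh1a2, the enzyme that makes retinoic acid, had 2608 and 1341 reads (log2 ratio -0.995, 95% interval -1.09 to -0.90), just short of 2-fold lower. Rarb, a retinoic acid receptor that retinoic acid itself induces, had 564 and 322 (-0.84, 95% interval -1.05 to -0.64). The receptors Rara and Rarg and the degrading enzyme Cyp26b1 were within 0.10 of 0. Egr2, a regulator of Hoxa2 in the hindbrain, had 2 and 20 reads (log2 ratio 2.78, 95% interval 1.24 to 6.43). It passed the filter only through its inversion reads. The 12 Polycomb and trithorax genes, which silence Hox genes or keep them active, ranged from -0.15 for Phc2 to 0.36 for Ring1, with 4 higher and 8 lower.

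Markers of other tissues moved with the members in part, and their part in the result was not tested. Of 8 muscle genes 7 were higher, and their summed level went from 963 to 1544 normalized reads, which is 0.68 on the log2 scale (95% interval 0.56 to 0.80). Of 6 cartilage genes 4 were higher, with a list median of 0.22 and the highest ratio for Matn1 (100 and 331 reads). Sox9 (log2 ratio -0.09) and Sox6 (-0.24) were lower. The sum of the 6 went from 11994 to 14101 normalized reads, within which Col2a1 went from 6375 to 8217. Of the 5 proximal limb genes only Shox2 was higher (376 and 724 reads), with a list median of -0.29. The limb mesenchyme list had a median of -0.04. Endothelial, surface ectoderm and red cell genes were each lower in all their members, with medians of -0.12, -0.22 and -0.23. Of 5 genes of Schwann cells and neural crest 4 were higher, with sums of 1038 and 1097 normalized reads. Neuron genes summed to 272 and 348 normalized reads, nearly all from Stmn2 and Tubb3, while Elavl3, Snap25 and Isl1 had between 1 and 4 reads in each library. Macrophage genes summed to 738 and 713 normalized reads. No marker with a row in the table was at 0 in either library.

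**Figure D5:**
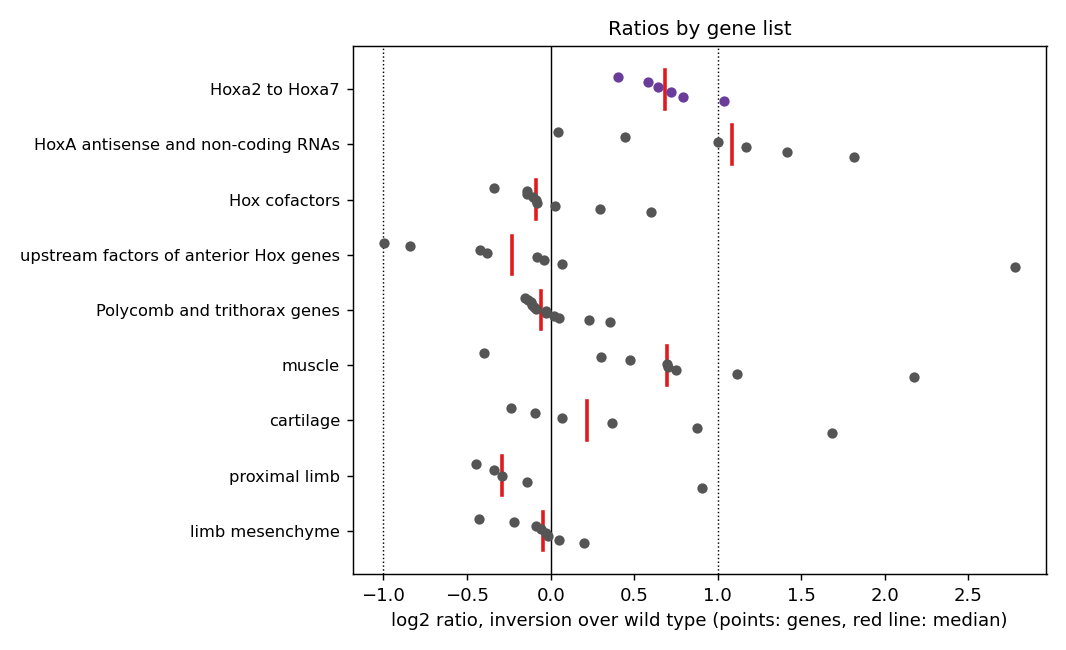
Log2 ratio of inversion over wild type (horizontal axis) for each gene that passed the filter (points) in 9 lists, with the median as a red line and 2-fold as dotted lines. The medians of Hoxa2 to Hoxa7 (0.68) and of muscle genes (0.70) are close. That of the HoxA antisense and non-coding RNAs, a list that includes 5730596B20Rik, annotated as protein-coding, is 1.08. Those of cofactors, upstream factors and Polycomb and trithorax genes are below 0, as is the median of all genes tested (-0.02).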

How the data were processed

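E12.5 distal forelimbs of wild-type and HoxD Inv(TpSB1-Itga6) embryos were profiled, 1 library each. Stranded, poly(A)-selected reads were mapped by the authors to NCBIM37 (Bowtie2 is named in the submitters' processing notes) and assigned with the HTS station pipeline. Whether reads that match several places counted more than once, or strand was used, is not given in the sources used here. The deposited signal is a read number per transcript that the authors scaled by library, writing 0.5 where a transcript had none. That entry was taken as 0. The methods name RPKM, which these values are not. Columns of the authors' own comparison (p-values, raw and adjusted, and the fold change, also as log2) were not used. Every value above 0.5 was a whole multiple of 1 read, within 0.01 normalized reads (100% of 58920 wild-type and 60872 inversion values). Transcripts were summed by symbol and chromosome and compared at the authors' scaling. A two-sided exact binomial test of recovered reads was an alternative chosen after seeing the data. It speaks of these libraries only, with Benjamini-Hochberg adjusted p-values under 0.05 for 2068 higher and 1318 lower genes.

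The members, lists and motifs were chosen with earlier results of these data known. Named were the members and their transcripts, the other genes at the locus, the Hox genes of the lists, and from each list of cofactors, upstream factors and chromatin genes those past 2-fold or at its ends, while Rarb, Rara, Rarg, Cyp26b1 and single markers were named after their values were seen. Older symbols were matched through transcript identifiers of GENCODE M21 (88.1% of transcripts matched). Alternatives were other scalings, pseudocounts, filters, thresholds and transcript sets. The steps were tested on simulated reads. Figures were drawn with matplotlib 3.10.9, and values were computed with scipy 1.17.1, pandas 2.3.3 and numpy 2.4.6 in Python 3.11.15.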

Additional observations from a re-analysis of the deposited data

How the results depend on the processing

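No paired analysis was possible because each genotype has 1 library. The log2 ratio was above 0 in the inversion library for each member under each alternative that gave it a value, 49 values in all, and 48 of them stayed within the counting interval. The exception was Hoxa7, at 0.84 over transcripts without exon overlap with another gene, which leaves out its transcripts with the most reads. Many of the 49 values repeat the main value by construction. A filter on the mean leaves a member's ratio as it is, and Hoxa2 and Hoxa5 have only 1 transcript to choose from. The number that stayed is thus no measure of robustness. By the transcript with the highest mean, Hoxa7 was at 0.26 and Hoxa4 at 0.41. The number of members at least 2-fold higher, 1 in the report, was 4 at a threshold of 1.5-fold and 0 at 4-fold. Among all genes tested, the 2-fold threshold gave 668 higher and 81 lower. Without a filter these numbers were 1992 and 1089, and a minimum mean of 100, passed by 4 members, gave 139 and 12. At 1.5-fold they were 1577 and 341, and at 4-fold 113 and 13. Protein-coding transcripts gave 412 higher genes, and the exact binomial test on the recovered reads, chosen after seeing the data, gave 2068 higher and 1318 lower. Filters, thresholds and transcript sets add or remove genes by construction. Depth limits Hoxa4, with 14 and 23 reads, and the genes on the opposite strand between Hoxa2 and Hoxa7.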

Other observations

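Transcripts of the posterior part of the HoxA cluster did not all have the same ratio. RP23-329P9.11, a transcript that GENCODE M21 places in Hoxa9 as a retained intron, had 103 wild-type and 318 inversion reads (log2 ratio 1.58, 95% interval 1.27 to 1.93). The coding Hoxa9 transcript ENSMUST00000048680 had 387 and 682 reads (log2 ratio 0.78, 95% interval 0.60 to 0.97). In Hoxa10, ENSMUST00000138481, a transcript not found in GENCODE M21, had 64 and 202 reads (log2 ratio 1.61, 95% interval 1.21 to 2.05), whereas the coding transcript ENSMUST00000125581 had 406 and 524 (0.33, 95% interval 0.14 to 0.52). These transcripts were picked after their values were seen.

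The intervals of 2 long non-coding RNAs of the posterior part, Hoxa11as and Hottip, overlapped that of Hoxa10. Hoxa11as, antisense to Hoxa11, had 1006 and 1402 reads (log2 ratio 0.44, 95% interval 0.32 to 0.56), and Hottip, listed as Gm15053 and known for keeping posterior HoxA genes active, had 506 and 713 (0.46, 95% interval 0.29 to 0.63). They were also named after their values were seen.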
